A study of Mus musculus with 8 samples.

Results

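Zfhx3, Zfhx4, Onecut1, Onecut2, Onecut3 and Pou2f2 are transcription factor genes linked to early-born spinal neurons with long axons. They were taken as the rows of the deposited UMI matrix with these symbols, and all 6 were found among its 19787 genes. The matrix holds 12447 nuclei of 8 libraries of wild type mice of the C57BL/6 strain, all from low thoracic cord, and 4076 of those nuclei carry a neuron name in the authors' annotation. Levels are given in CPM, here the UMIs (unique molecular identifiers, 1 per captured RNA molecule) of a gene per 1000000 UMIs of the summed nuclei.

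In the developing spinal cord, neurons are born in waves, and each wave carries its own transcription factors in nearly all progenitor domains. Onecut proteins, which hold a cut domain beside a homeodomain, mark the earliest wave. Zfhx3 and Zfhx4, very large proteins with many zinc fingers and several homeodomains, and Pou2f2, the POU factor Oct2, follow. Neurons of the early waves tend to send axons to distant segments, while later waves, marked by Nfi and Neurod factors, tend to build local circuits. Pou2f2 is also well known from B lymphocytes and other immune cells.

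Experiment 1 separated nuclei by a green fluorescent tracer (GFP) from uninjured mice: 2 traced libraries hold neurons that project to lumbar walking centres, and 2 untraced libraries hold nuclei without the tracer. Experiment 2 compared 2 libraries from mice with a hemisection, from a design on natural repair, with 1 uninjured control library. The time after injury is not stated. Experiment 3 gave 1 library of GFP-traced regenerating neurons. The titles number the mice or samples but do not state animals, so p-values cover the spread between these libraries, which may be partly technical.

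The 2 traced libraries hold 80 and 25 neurons, the untraced libraries 354 and 123, the hemisection libraries 1000 and 108, the uninjured control 2148 and the regenerating library 238. Neuron UMIs ranged from 135012 in the regenerating library to 20739862 in the control. The regenerating library stood apart in depth, with a median of 488 UMIs per neuron against 5767 to 16489.5 in the others. Neurons made up 89.6% of the nuclei in the first hemisection library and 7.15% in the second. Among nuclei with a barcode, no more than 2 sequences were shared between any pair of libraries. Neuron markers (Snap25, Syt1 and others) summed to between 2606 and 3357 CPM in the neurons of all 8 libraries.

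Zfhx3, the only member called between traced and untraced neurons in the main test, spans chr8:107942644-108961630 on the plus strand of GRCm38 (GENCODE M21, protein coding). Its RefSeq promoter entry lies inside that span, at chr8:108714394-108714643 of GRCm38.p6, in intronic sequence of longer transcripts. The 250 bases before that start site are shown because this gene's level carries the main comparison, with CpG dinucleotides in capitals.

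Zfhx3: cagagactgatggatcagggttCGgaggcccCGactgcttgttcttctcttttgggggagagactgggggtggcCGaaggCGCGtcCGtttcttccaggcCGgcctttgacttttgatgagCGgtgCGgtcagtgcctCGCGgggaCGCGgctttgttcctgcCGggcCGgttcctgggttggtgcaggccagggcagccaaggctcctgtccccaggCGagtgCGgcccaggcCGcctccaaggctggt

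The window holds 18 CpG dinucleotides, more than 78.4% of 27025 RefSeq promoter windows of the same length, whose median is 6. Neither the octamer bound by POU2 factors (ATGCAAAT) nor the Onecut core (ATCAAT) was found on either strand of the window. These letters occur in 1.61% and 6.97% of all windows. The other members lie at chr3:5218526-5415857 (Zfhx4, plus strand), chr7:25087344-25179726 (Pou2f2, minus strand), chr9:74861921-74891781 (Onecut1, plus strand) and chr10:80494835-80517276 (Onecut3, plus strand). Onecut2 is on chromosome 18.

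The first question was whether neurons with lumbar projections differ in these factors from untraced neurons. Zfhx3 was higher in both traced libraries, at 665 and 450 CPM, than in both untraced libraries, at 264 and 225 CPM. The 4 libraries did not overlap, and the first traced library was the highest of all 8. With 2 libraries per group, a rank test gives no 2-sided p below 0.33, so non-overlap alone is weak. The share of all genes that separate in this way was not counted. Zfhx3 rose by 1.15 ± 0.21 (SE) on the log2 scale, and edgeR's quasi-likelihood test gave a Benjamini-Hochberg adjusted p of 0.0311. It was 1 of 13 genes called higher among 11601 tested (0.112%), and 42 genes were called in either direction (0.362%). With the replicate number as a block, the change was 1.14 (edgeR adjusted p = 0.00229) and 159 genes were called. That fit held only these 4 libraries, so it differs from the main fit in its libraries as well as in the block. Without the first traced library the call was lost (0.75). It was also lost when the Zfhx3 UMIs of the top nucleus of each library were taken off (1.07, edgeR adjusted p = 0.100). The other UMIs of those nuclei stayed in. In the second traced library 1 nucleus gave 47 of the 150 Zfhx3 UMIs. Equal numbers of DE and VEP nuclei, 2 groups of neuron subtypes described further on, were also drawn from each library. The sign then turned: traced Zfhx3 was 592 CPM and untraced Zfhx3 630 CPM, a log2 ratio of -0.0881 with no test. In these draws Zfhx4 (271 against 172 CPM) and Onecut2 (31.8 against 11.6 CPM) stayed higher in traced neurons, and the other members did not.

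Zfhx4, the nearest relative of Zfhx3, was also higher in both traced than in both untraced libraries, by less. Its level was 249 and 216 CPM in the traced and 151 and 156 CPM in the untraced libraries. The groups did not overlap, and the difference of 0.57 ± 0.19 (SE, log2) did not pass the test (edgeR adjusted p = 0.336).

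The Onecut genes were sparse in adult neurons. Onecut2 stood at 33.8 and 33.0 CPM in the traced libraries, from 49 and 11 UMIs, and at 12.5 and 10.1 CPM in the untraced libraries, from 44 and 9 UMIs. Both traced libraries were above both untraced ones, and the difference of 1.47 ± 0.39 (SE, log2) missed the threshold (edgeR adjusted p = 0.147; 0.0562 with the replicate block). Without the filter on low counts it was called (1.45, edgeR adjusted p = 0.0363). Onecut1 had 12 and 1 UMIs in the traced and 3 and 5 in the untraced libraries, so the groups overlapped. Onecut3 had 3 and 0 UMIs in the traced and 4 and 0 in the untraced libraries and was removed by the filter. Depth therefore limits any statement on Onecut1 and Onecut3.

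Pou2f2 did not separate the groups. It stood at 48.2 and 93.0 CPM in the traced libraries and at 55.9 and 63.8 CPM in the untraced ones, which lie between. Its difference was 0.03 ± 0.30 (SE, log2; edgeR adjusted p = 1).

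**Figure D1:**
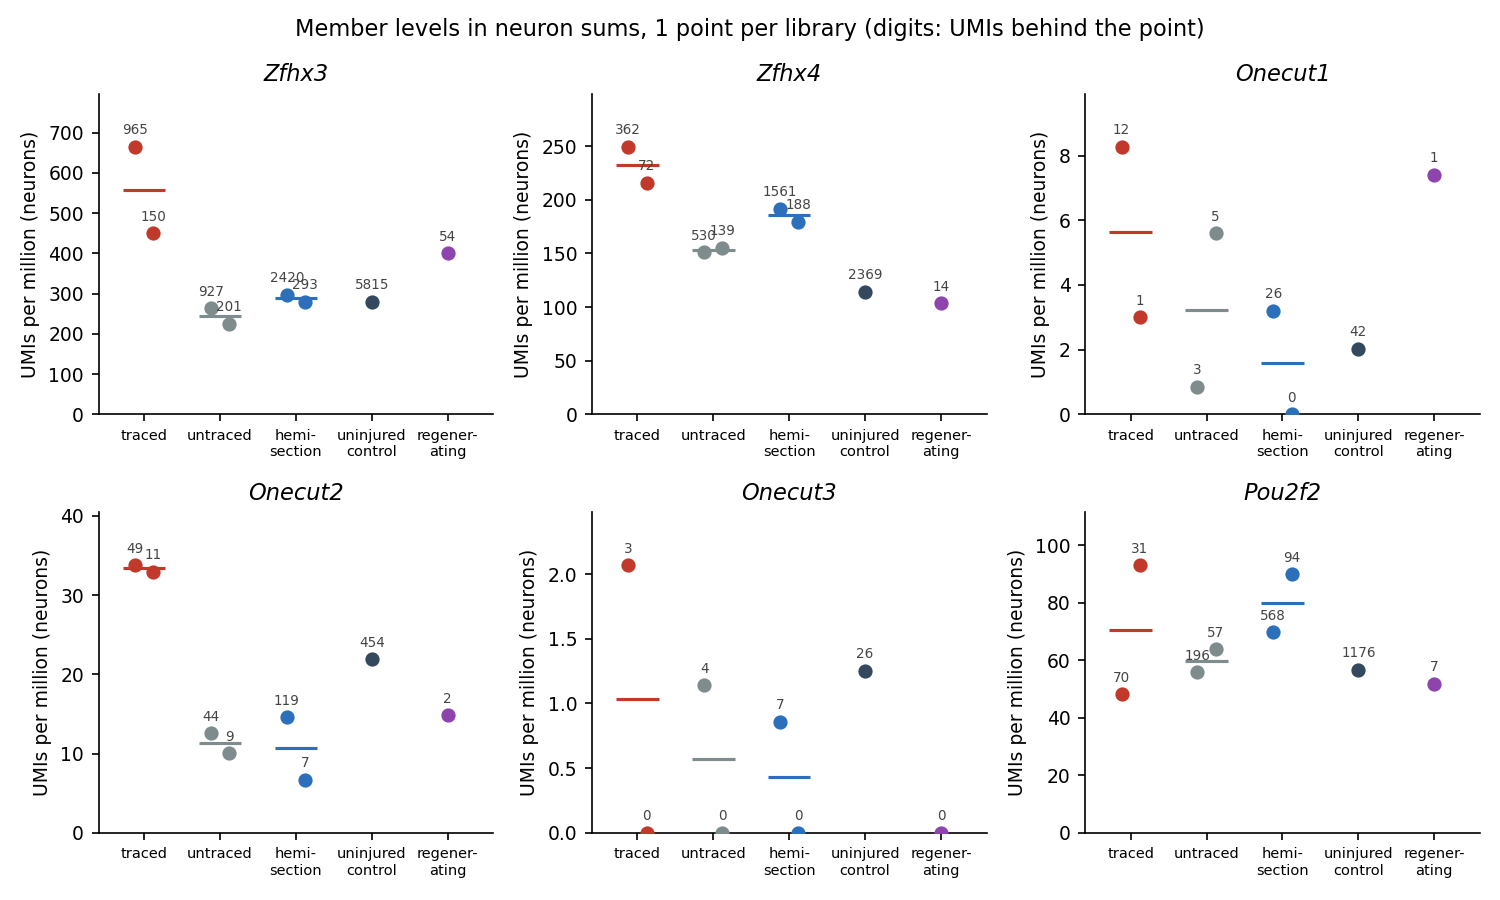
CPM of each member in the summed neurons (vertical axis) for the 8 libraries in 5 groups, 1 point per library with its UMI count and a line at the mean where a group has 2 libraries. Zfhx3, Zfhx4 and Onecut2 are higher in both traced than in both untraced libraries, while Pou2f2 overlaps and Onecut1 and Onecut3 rest on few UMIs. The share of all genes that separate in this way was not counted.

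The 5 members that passed the filter all had differences above 0, between 0.03 and 1.56, with a median of 1.15 against -0.00444 over all tested genes. Of all tested genes, 49.3% had a difference above 0. Pou2f2 and Onecut1 overlapped between the groups, so their signs carry little. The members were chosen with earlier results of these data known, so their shared direction is no test. Onecut3, the member left out, has too few UMIs for a direction. The microglial markers Csf1r, Cx3cr1, C1qa and Trem2, checked because microglia hold much Zfhx3, summed to 32.4 and 27.0 CPM in the traced libraries, against 19.1 and 17.9 CPM without the tracer and 3839 CPM in the nuclei named microglia. Cx3cr1 alone was higher in traced neurons, at 31.7 and 27.0 against 9.41 and 7.83 CPM, while C1qa and Trem2 were at 0 in both traced libraries and Csf1r had 1 and 0 UMIs there. Oligodendrocyte markers were lower in traced neurons, at 35.1 and 39.0 CPM in traced against 78.7 and 86.1 CPM in untraced neurons. Their part in the result was not tested.

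Because the traced and untraced neurons were not the same mixture of types, each member was next followed across the 11 families, the prefixes of the 28 deposited subtype names. The first letter is read as dorsal (D), mid (M) or ventral (V) cord and the second as excitatory (E) or inhibitory (I). The second letter fits the marker genes: Slc17a6, the vesicular glutamate transporter, was at 120 to 253 CPM in E and 0 to 21.0 CPM in I families. The third letter, P or L, is not explained in the sources used here, and whether these members were used to give it is not stated. Nuclei were clustered on the same genes, so levels by family are a description with no test.

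Zfhx3 was highest in the ventral P families. It reached 1134 ± 264 CPM (SD, n = 4 libraries with at least 10 nuclei) in VEP and 694 ± 276 (n = 3) in VIP. The middle group was MIP at 291 ± 24.8 (n = 2) and MIL at 284 ± 146 (n = 3). It was low in DE at 107 ± 47.7 (n = 6), DI at 96.0 ± 72.4 (n = 5), VEL at 82.5 ± 55.1 (n = 2) and VIL at 59.4 ± 29.7 (n = 3). CSF-N, at 167 ± 7.19 CPM (SD, n = 2), and MN, at 129 CPM (1 library), lay between these groups. MEP, at 94.9 ± 29.3 (SD, n = 2), was among the low families. VEP and VIP differed by more than either SD, while neighbours among DE, DI, MEP, VEL and VIL differed by less than their spread. Summed by the third letter, P families had 861 ± 151 CPM (n = 7, lowest 630) and L families 134 ± 35.3 (n = 3, highest 174), with no overlap. Single families of the mid cord did not follow: MIP was close to MIL, and the P family MEP was below MIL. By position, ventral families had 782 ± 160 CPM and dorsal families 104 ± 36.7 (both n = 7).

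Subtypes of one family differed. VIP_V1_Foxp2, a name that points to the V1 class of ventral inhibitory neurons, had 773 ± 260 CPM Zfhx3 (n = 3), and VIP_V1_Mafa had 154 CPM (1 library). The dorsal subtypes DI_Npy, with 622 ± 193 CPM (n = 3), and DE_Rora, with 540 ± 180 (n = 2), stood far above their own families. Other dorsal inhibitory subtypes closed the list, with DI_Nxph1_Npy at 17.3 ± 19.4 CPM (n = 4) and DI_Pdyn_Gal at 0 to 22.2 CPM (n = 4). Zfhx3 UMIs were found in all 28 subtypes. Of 18 neighbouring pairs in the order of subtypes with an SD for both, 2 Zfhx3 gaps were larger than the SD of either neighbour.

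Zfhx4 was spread more evenly. It was lowest in MN, with 12 UMIs in 28 nuclei, and highest in VEP, at 279 ± 89.7 CPM (n = 4), with DE at 156 ± 70.9 (n = 6) and DI at 176 ± 31.6 (n = 5). None of the 19 neighbouring gaps in its order of subtypes with an SD for both exceeded it. The highest subtypes were DE_Rora at 391 ± 149 (n = 2), DI_Npy at 382 ± 82.1 (n = 3) and DE_Reln_Trhr at 361 ± 206 CPM (n = 2). Thus DE_Rora and DI_Npy were among the 5 highest subtypes for both Zfhx genes. Zfhx4 was higher in the summed P families, at 232 ± 63.1 CPM (n = 7, lowest 137), than in the summed L families, at 79.2 ± 23.7 (n = 3, highest 102), again without overlap. Single families did overlap: the L family VIL reached 184 CPM, above the P family MIP at 115 to 119 CPM.

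Onecut2 was concentrated in a few subtypes. MN, the family with the motor neuron markers Chat and Slc5a7 (493 CPM summed, against 20.8 over all neurons), had 111 CPM in the control, the single library with 10 nuclei of it. High levels were also seen in VIP_V1_Foxp2 at 65.1 ± 16.5 (n = 3) and DE_Rora at 61.0 ± 9.04 CPM (n = 2). Dorsal families together had 4.18 ± 2.27 CPM and ventral families 38.8 ± 11.4 (both n = 7). Onecut2 was not seen in CSF-N and MEP, families of 40 and 32 nuclei. Summed by the third letter, P families had 15.2 to 56.3 CPM (n = 7) and L families 0 to 13.5 CPM (n = 3), without overlap. Single families did not all follow: the L family VEL was at 18.6 to 19.4 CPM (n = 2), above the P family MIP at 9.36 to 9.85 (n = 2). The share of all genes that separate by this letter was not counted.

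Onecut1 and Onecut3 were close to the limit of these data, with 89 and 40 UMIs in the neurons of the 7 libraries other than the regenerating one. Onecut1 was highest in VEP, at 2.38 to 21.2 CPM (n = 4, 61 UMIs), and next in VIP, at 7.81 ± 5.36 (n = 3, 19 UMIs), and VIP_V1_Foxp2 held all 19 of the latter. Onecut3 was highest in VIL_V1_Sp8, at 10.7 ± 7.93 CPM (n = 2, 9 UMIs).

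Pou2f2 had an order of its own. CSF-N had the highest level, 295 ± 89.0 CPM (n = 2), and the dorsal excitatory subtypes DE_Nts, at 163 ± 42.0 (n = 3), and DE_Reln_Trhr, at 148 ± 17.9 (n = 2), came next. It did not separate P from L families, with 68.7 ± 18.0 (n = 7) and 62.7 ± 20.5 CPM (n = 3), nor dorsal from ventral ones, with 64.1 ± 22.5 and 71.2 ± 20.2 CPM (both n = 7). DE_Rora, high for both Zfhx genes and Onecut2, was the lowest Pou2f2 subtype at 24.3 ± 17.1 CPM (n = 2).

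**Figure D2:**
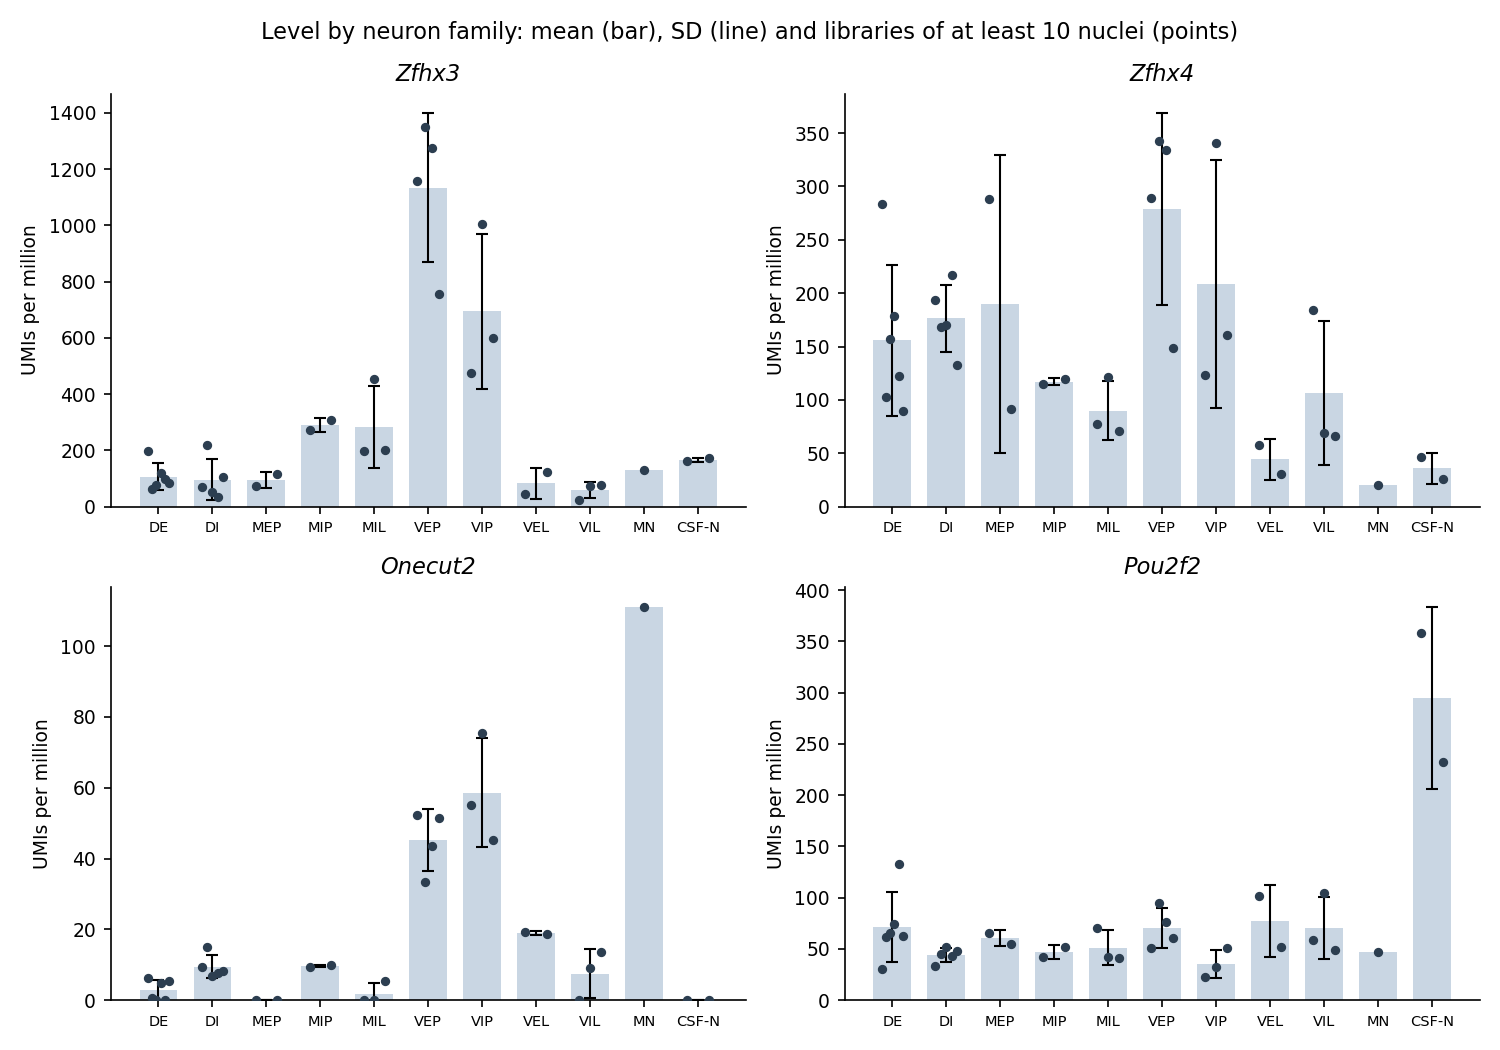
CPM (vertical axis) of Zfhx3, Zfhx4, Onecut2 and Pou2f2 in 11 neuron families (horizontal axis), with bars at the mean, lines for the SD and a point for each library with at least 10 nuclei of the family. Zfhx3 and Onecut2 are high in VEP and VIP, Onecut2 also in the single MN library, Pou2f2 in CSF-N, and Zfhx4 is spread over dorsal and ventral families.

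Over the 27 subtypes with at least 20 nuclei, Zfhx3 and Zfhx4 had a Pearson r of 0.48 in log2(CPM + 1), and Onecut1 and Onecut2 of 0.61, while Pou2f2 and Zfhx3 had 0.05. With the 7 late-born factors, r ran from -0.50 (Nfix) to -0.02 (Nfia) for Zfhx3 and from -0.55 (Nfia) to 0.02 (Prox1) for Zfhx4. Nfia had an r above 0 with Onecut1 (0.45), Onecut2 (0.32) and Onecut3 (0.35). These are descriptions over subtypes that share libraries and differ in nuclei and depth. The pattern of Onecut2 was most like those of Ptger4, a prostaglandin receptor (r = 0.83), Htr2b, a serotonin receptor (0.82), and Mrps10 (0.80). The nearest genes of the other members reached r of 0.62 to 0.74: Ppil3, Ssh1 and Abca1 for Zfhx3, Rsbn1, Fxr2 and Dpm2 (0.61) for Zfhx4, Pdlim7, Nefl and Hhipl1 for Onecut1, Sbds, Atp13a2 and Slc25a16 for Onecut3, and Atp2c1, Nedd4 and Mier1 for Pou2f2. They are the best of 7173 or 7174 candidates, which is no finding in sparse counts.

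The mixture of families differed between traced and untraced neurons. VEP neurons were 38.8% and 24% of the traced and 7.34% and 4.88% of the untraced neurons, and DE neurons were 37.5% and 36% against 54.5% and 57.7%. When the untraced CPM of each family was weighted by that family's share of UMIs in the traced library of the same number, untraced Zfhx3 came to 665 and 489 CPM, against 665 and 450 CPM in the traced libraries. The re-weighting covered 97.3% and 90.6% of the traced UMIs. Zfhx4 came to 213 and 122 CPM, below the traced 249 and 216, and Onecut2 to 18.4 and 18.5 CPM, below the traced 33.8 and 33.0. Pou2f2 came to 70.8 and 92.7 CPM against 48.2 and 93.0. By subtype instead of family, untraced Zfhx3 came to 633 and 1057 CPM, so the second replicate rests on a few nuclei.

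Within the DE family, Zfhx3 was at 196 and 107 CPM in traced neurons (30 and 9 nuclei) and at 63.5 and 77.3 CPM in untraced neurons (193 and 71 nuclei). Zfhx4 was at 284 and 237 CPM against 103 and 157. Neither gene overlapped between the groups, but the second traced library rests on few UMIs: 1 nucleus held 8 of its 9 Zfhx3 UMIs and 1 held 10 of its 20 Zfhx4 UMIs. Without the top nucleus of each library, traced Zfhx3 was 168 and 15.3 CPM and untraced Zfhx3 56.5 and 67.9 CPM, so the groups overlapped. Zfhx4 was then at 242 and 153 CPM against 99.8 and 147. No member was called in DE, where 0.196% of 9180 genes were: Zfhx3 differed by 1.26 ± 0.32 (SE, log2; unadjusted p = 0.000756, edgeR adjusted p = 0.162) and Zfhx4 by 1.02 ± 0.30 (unadjusted p = 0.00287, edgeR adjusted p = 0.262). Of the 3 members tested there, 2 had an unadjusted p under 0.05, beside 7.19% of all genes tested, and Pou2f2 differed by -0.58 ± 0.46 (edgeR adjusted p = 0.866). The subtypes within DE, such as DE_Rora, differ in Zfhx3, and their part in the difference was not tested.

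Within VEP both Zfhx genes overlapped between the groups. Zfhx3 was at 1157 and 822 CPM in traced (31 and 6 nuclei) and at 1348 and 715 CPM in untraced neurons (26 and 6 nuclei), a difference of -0.07 ± 0.40 (SE, log2; edgeR adjusted p = 1.00). Zfhx4 was at 290 and 302 CPM against 343 and 75.3, and Onecut2 at 52.2 and 58.7 CPM against 33.3 and 18.8, without overlap but with the last from 1 UMI. None of the 5 members tested was called by edgeR or had an unadjusted p under 0.05, beside 0.0127% of 7872 genes called and 3.04% with such a p. The traced effect on Zfhx3 was lower in VEP than in DE by 1.12 ± 0.56 (SE, log2), and the test of this interaction was not passed (unadjusted p = 0.0560, edgeR adjusted p = 1.00, with 0.0755% of 7949 genes called). The interactions of Zfhx4, Onecut2 and Pou2f2 did not pass either.

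**Figure D3:**
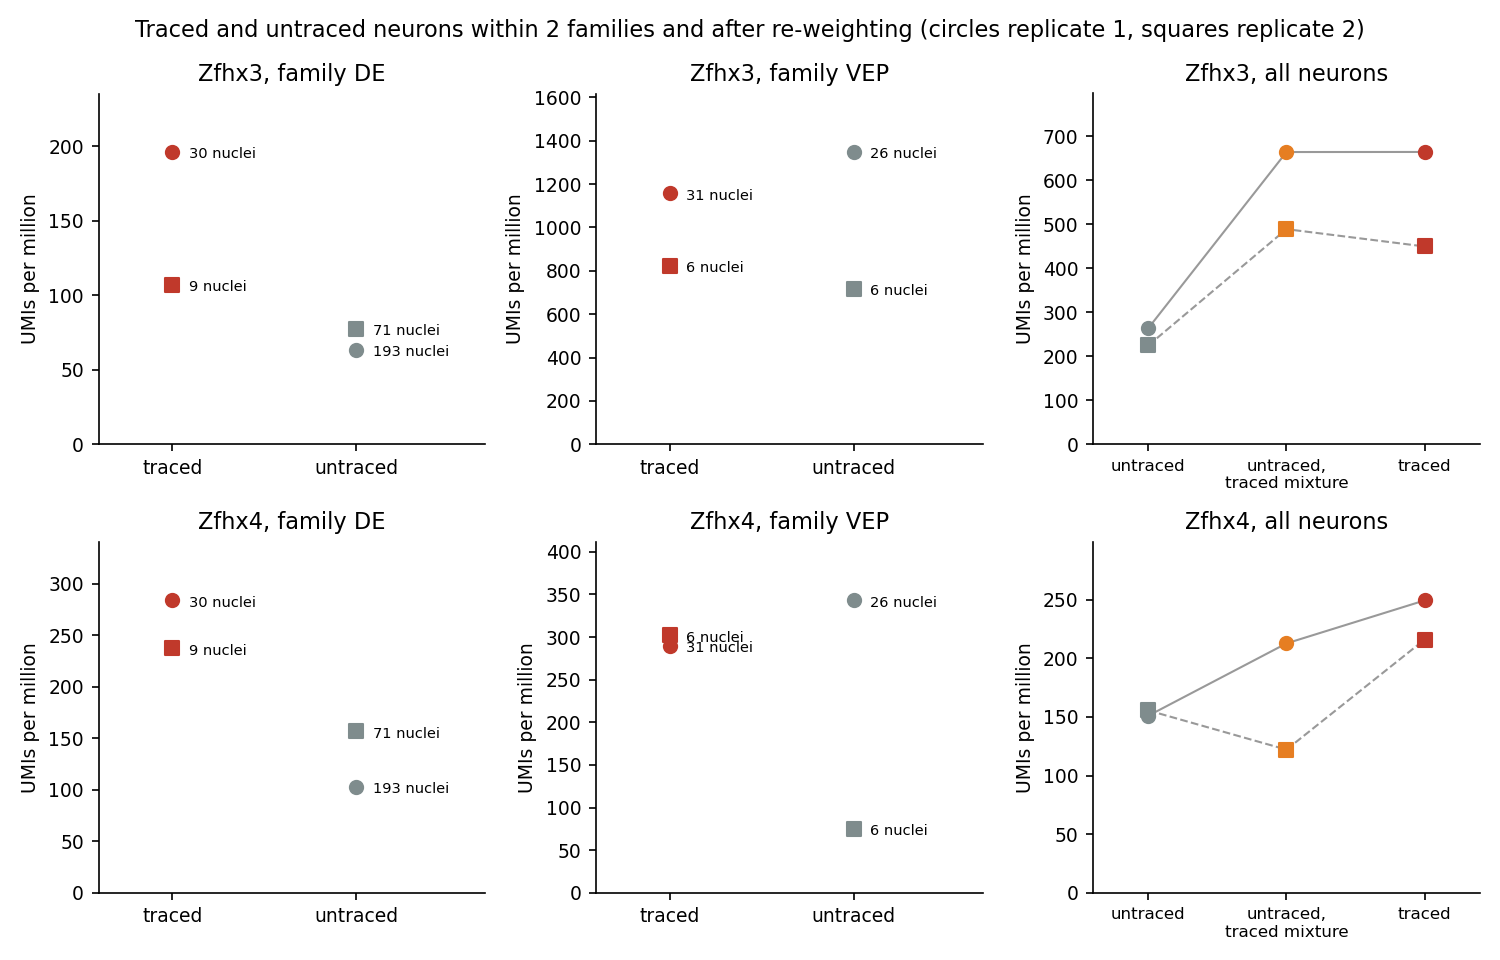
CPM (vertical axis) of Zfhx3 (top) and Zfhx4 (bottom) in traced and untraced neurons of DE and VEP, with nuclei counts, and in all neurons before and after weighting untraced families as in the traced library (circles replicate 1, squares replicate 2). Traced is above untraced for both genes in DE, where the second traced library has 9 nuclei, the groups overlap in VEP, and re-weighted untraced Zfhx3 is 665 and 489 CPM beside the traced 665 and 450.

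The second comparison asked what a hemisection changed. Zfhx4 was at 192 and 180 CPM in the hemisection libraries and at 114 CPM in the uninjured control, and both injured libraries lay above it. Zfhx4 rose by 0.82 ± 0.22 (SE, log2; edgeR adjusted p = 0.0385), as 1 of 110 genes called higher (0.948% of 11601; 5.56% in either direction). The call was lost with DESeq2 (0.75, adjusted p = 0.291), without TMM scaling (edgeR adjusted p = 0.0664) and without either hemisection library. It was also lost when the Zfhx4 UMIs of the top nucleus of each library were taken off (edgeR adjusted p = 0.0657). Zfhx4 stood at 151 and 156 CPM in the untraced uninjured libraries, and against these the difference was 0.30 (edgeR adjusted p = 1).

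By family, Zfhx4 was higher in both hemisection libraries than in the control in DE (178 and 123 against 90.1 CPM), DI (170 and 217 against 132), VEP (334 and 259 against 149) and VIP (341 and 358 against 161). The differences were 0.80, 0.58, 1.01 and 1.08 on the log2 scale, with edgeR adjusted p of 0.302, 0.428, 0.769 and 0.0917. Zfhx4 was thus called in none of the 4 families, beside 2.96%, 2.77%, 0.991% and 2.81% of the genes tested in each, and its unadjusted p was 0.0222, 0.0595, 0.0595 and 0.00315. Untraced Zfhx4 overlapped the hemisection values in DE (103 and 157 CPM), DI (193 and 169) and VEP (343 and 75.3) and lay below them in VIP (123 and 220). Astrocytes were the glial class with the highest Zfhx4 level. Their markers summed to 84.3 and 82.2 CPM in the neurons after hemisection and to 134 CPM in the control. The part of these markers in the difference was not tested.

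**Figure D4:**
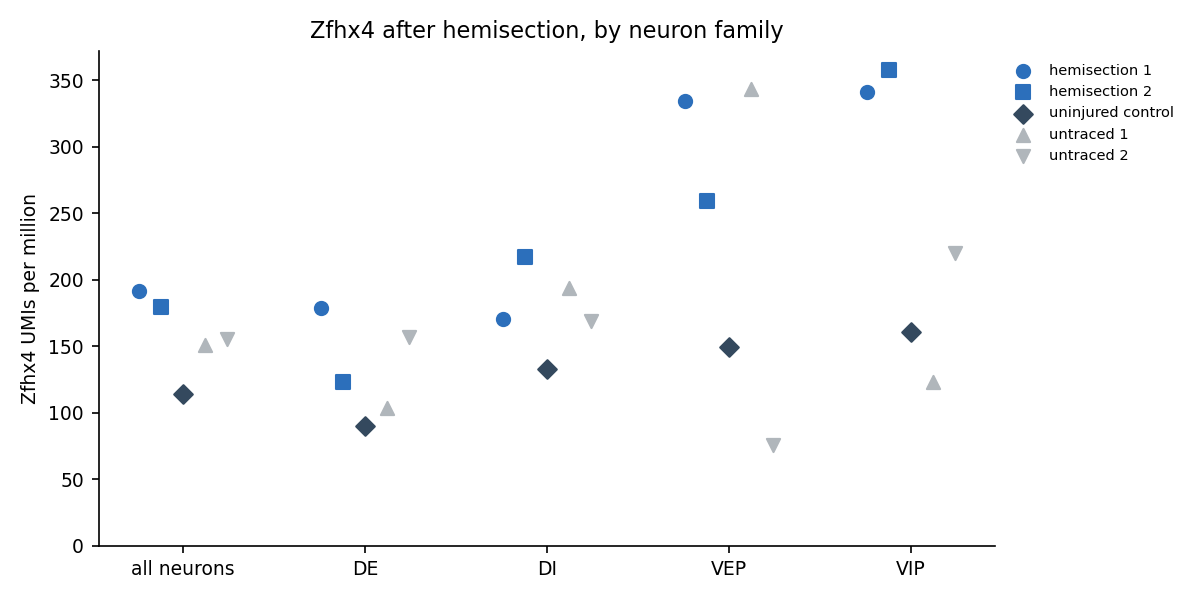
Zfhx4 CPM (vertical axis) in all neurons and 4 families (horizontal axis) of 2 hemisection libraries, the uninjured control and the 2 untraced uninjured libraries. Both hemisection points lie above the control in all neurons and in DE, DI, VEP and VIP, and the untraced points lie above the control except for 1 in VEP and 1 in VIP.

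The other members did not pass the test after hemisection. Zfhx3 was at 297 and 280 CPM against 280 in the control, a difference of 0.16 ± 0.24 (SE, log2; edgeR adjusted p = 0.793). Within families its differences pointed both ways, from -1.06 in DI to 0.75 in VEP, with edgeR adjusted p of 0.314 and 0.975. Pou2f2 was at 69.8 and 89.9 CPM against 56.7, above the control in both, with 0.57 ± 0.29 (edgeR adjusted p = 0.304). Onecut1 had 26 and 0 UMIs in the hemisection libraries and 42 in the control.

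Onecut2 was lower in both hemisection libraries, at 14.6 and 6.69 CPM, than in the control at 21.9. The difference of -0.74 ± 0.36 (SE, log2) did not pass the test (edgeR adjusted p = 0.283). Oligodendrocyte markers moved in the same direction in these neurons. Mbp, Mobp, Mog and Mal summed to 43.2 and 76.5 CPM after hemisection and 249 CPM in the control. In the nuclei named oligodendrocytes they summed to 8000.5 CPM. The mixture of neuron families differed as well. MN, the family with the highest Onecut2 level, had 24 nuclei in the control and 0 in both hemisection libraries. VIP neurons were 10.3% of the control neurons and 5% and 6.48% of the hemisection neurons. The part of these markers and of the mixture in the difference was not tested. In VEP and VIP neurons Onecut2 differed by -0.40 and 0.36 (edgeR adjusted p of 1 and 0.997).

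The third comparison set regenerating against uninjured traced neurons. The regenerating library had 54 Zfhx3 UMIs (400 CPM), 14 of Zfhx4 (104 CPM), 7 of Pou2f2 (51.8 CPM), 2 of Onecut2, 1 of Onecut1 and none of Onecut3. Zfhx3 was below both uninjured traced libraries and above all 5 other libraries, and Zfhx4 was the lowest of the 8. The median of all genes moved by -0.28 on the log2 scale in this comparison. Zfhx4 differed by -1.21 ± 0.36 (SE; unadjusted p = 0.00432, edgeR adjusted p = 0.178) and Zfhx3 by -0.53 ± 0.31 (edgeR adjusted p = 0.418). None of the 5 members tested was called by edgeR (1 at an unadjusted p under 0.05) or by DESeq2, beside 0.276% of 11601 genes called and 14.7% with such a p. DESeq2 gave no adjusted p for 2 of the 6 members here and could not call them. VEP neurons were 29.0% of the regenerating neurons. Their Zfhx3 was at 762 CPM, below the 1157 and 822 CPM of uninjured traced VEP neurons, and their Zfhx4 at 148 CPM, below 290 and 302. These regenerating levels rest on 69 nuclei and on part of the library's 54 Zfhx3 and 14 Zfhx4 UMIs. The second traced library had 6 VEP nuclei, and no test was run.

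The factors of later-born neurons gave no call. In each comparison 6 of 7 such genes were tested (Nfia, Nfib, Nfix, Neurod2, Tcf4 and Prox1). None was called by edgeR or DESeq2 between traced and untraced neurons or after hemisection, and none had an unadjusted p under 0.05 there, as 8.02% and 19.1% of all genes had. Nfib and Nfia were 0.47 and 0.32 higher (log2) in traced neurons, with edgeR adjusted p of 0.670 and 0.877, and the list's median was 0.14. In regenerating neurons none was called by either tool, 1 had an unadjusted p under 0.05, and Nfia differed by -1.99 (unadjusted p = 0.0124, edgeR adjusted p = 0.230). Of 6 relatives by domain (Zfhx2, Cux1, Cux2, Satb1, Pou2f1 and Pou2f3), 5 were tested and none was called by either tool in any of the 3 comparisons. Cux2 was 0.76 higher in traced neurons (edgeR adjusted p = 0.191), and Satb1, another cut-domain gene, was 0.90 higher after hemisection (edgeR adjusted p = 0.0660). At an unadjusted p under 0.05 the domain relatives gave 2, 1 and 2 of 5 genes, beside 8.02%, 19.1% and 14.7% of all genes in the 3 comparisons. Of 8 TGF-beta pathway genes, 7 were tested by edgeR. None was called by either tool or had an unadjusted p under 0.05 in any of the 3 comparisons. DESeq2 gave some of these listed genes no adjusted p and could not call them. In the 3 comparisons these were 4, 2 and 2 of the 7 late-born factors and 6, 4 and 1 of the 8 TGF-beta genes. Of the 6 domain relatives it was 1 each time.

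Outside neurons, 3 of the members had strong sites of their own. Zfhx3 reached 1892 ± 948 CPM in microglia (n = 5 libraries), above the 225 to 665 CPM of summed neurons, and was at 326 ± 29.3 in astrocytes (n = 3), 155 ± 47.2 in oligodendrocyte precursors, the OPC class (n = 5), and 96.1 ± 11.1 in oligodendrocytes (n = 6). The microglial level was 3042, 2564 and 1965 CPM in the 3 uninjured libraries with at least 10 microglia. It was 833 and 1056 CPM in the hemisection libraries, with no overlap and no test. The value of 1965 CPM is that of the control, the only uninjured library of the hemisection experiment. The share of all genes that separate these microglia in this way was not counted. Pou2f2 was at 608 ± 232 CPM in microglia (n = 5) and 83.2 ± 18.8 in OPC (n = 5). Zfhx4 behaved otherwise, with 10.8 ± 8.14 CPM in microglia (n = 5), 252 ± 32.3 in astrocytes (n = 3) and 129 ± 22.3 in oligodendrocytes (n = 6). The vascular class was uneven, with 77.6 CPM Zfhx4 in the control (188 nuclei) and 576 CPM in the second hemisection library (12 nuclei).

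Onecut2 was at 93.1 ± 49.6 CPM in oligodendrocytes (n = 6), which held 2643 of its UMIs against 693 in neurons of the same 7 libraries. It was near 0 in OPC (2.18 ± 3.42, n = 5), astrocytes (1.80 ± 3.12, n = 3) and microglia (4.61 ± 5.74, n = 5). Onecut1 and Onecut3 did not share this, with 6 and 8 UMIs in 5780 oligodendrocytes.

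**Figure D5:**
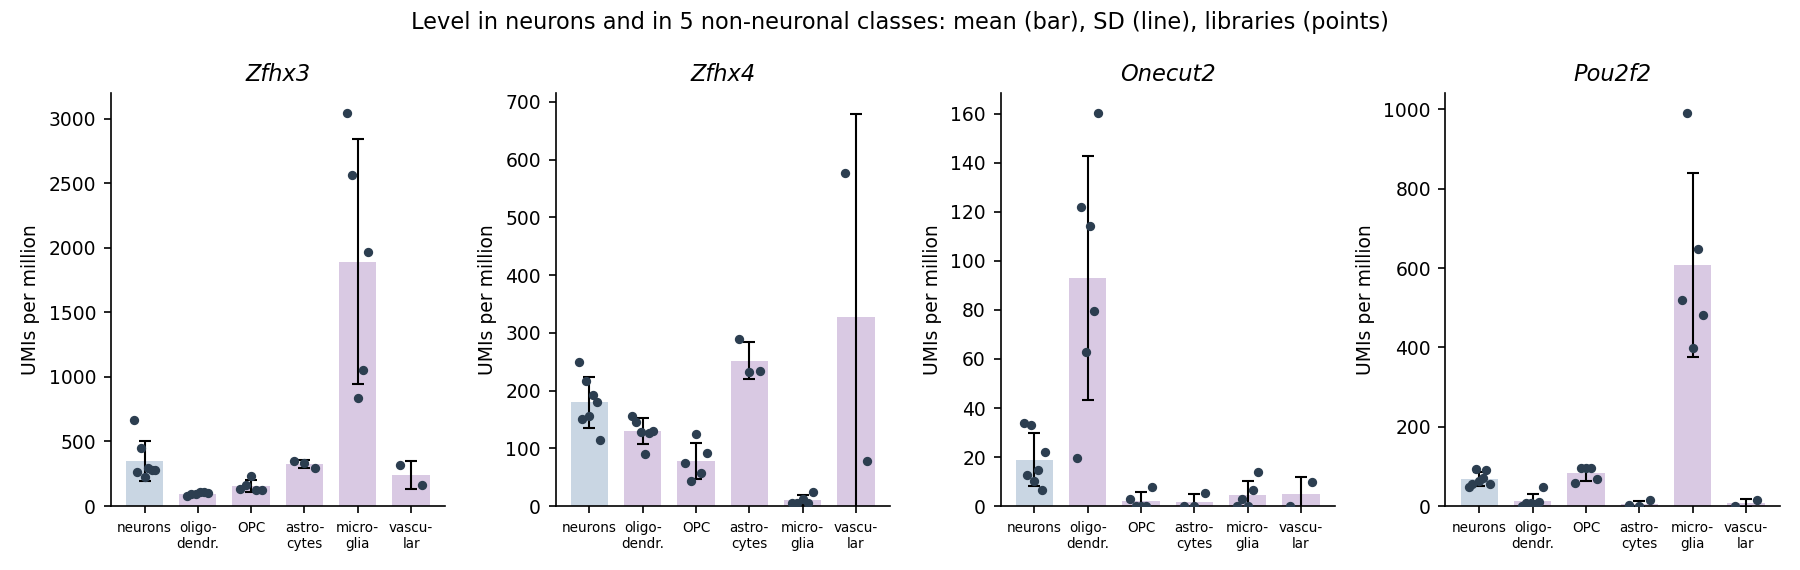
CPM (vertical axis) of Zfhx3, Zfhx4, Onecut2 and Pou2f2 in summed neurons and 5 non-neuronal classes (horizontal axis), with bars at the mean, lines for the SD and 1 point per library. Microglia are highest for Zfhx3 (1892 CPM) and Pou2f2 (608 CPM), oligodendrocytes for Onecut2 (93.1 CPM).

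Shares of nuclei with a UMI were compared after thinning each nucleus to 2000 UMIs and leaving out shallower ones. Zfhx3 was then found in 39.0% of traced neurons of replicate 1 (77 nuclei, exact 95% interval 28.05 to 50.8) and 25% of replicate 2 (24 nuclei, 9.77 to 46.7). In untraced neurons it was found in 14.9% (11.3 to 19.0) and 17.0% (10.4 to 25.5). The intervals of the first pair did not overlap and those of the second did. Each interval counts nuclei within 1 library, so this is no test of traced against untraced neurons. Without thinning, these shares were 75%, 48%, 35.0% and 30.9%, at median depths of 16489.5, 12138, 8522 and 5767 UMIs. The thinning left out 3, 1, 4 and 17 neurons of these 4 libraries.

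Thinned Onecut2 was found in 20.7% of oligodendrocytes (4792 nuclei, exact 95% interval 19.6 to 21.9) and 3.42% of control neurons (2136 nuclei, 2.69 to 4.28). The share was 1.32% in microglia and 1.04% in astrocytes, classes that serve as background here. Unthinned, the oligodendrocyte and control neuron shares were 28.7% and 13.5%, at median depths of 3072 and 8907 UMIs. Thinned Pou2f2 was found in 59.7% of microglia and 11.3% of control neurons, and in 2.97% of astrocytes. Thinned Onecut1 was found in 0.328% of control neurons (exact 95% interval 0.132 to 0.674) and 0.0835% of oligodendrocytes (0.0227 to 0.214). Thinned Onecut3 was found in 0.234% of control neurons (0.0760 to 0.545) and 0.0626% of oligodendrocytes (0.0129 to 0.183). The intervals overlapped for both genes, and neither was found in 674 astrocytes, which allows a share of up to 0.445%. Zfhx3 and Zfhx4 were found together in 134 of 2136 thinned control neurons, 25.8% of those with Zfhx3, while Zfhx4 was found in 18.2% of all. Intervals and the limit for a count of 0 cover counting error only.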

How the data were processed

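Nuclei of the low thoracic cord were profiled with 10x v3 single-nucleus RNA-seq. The authors deposited 1 matrix of UMI counts per gene and nucleus with a table naming each nucleus's library and cell type. The tools named in the submitters' processing notes are Cell Ranger 4.0.0 and Seurat 3, with the builds mm10 and GRCm38. The deposited cell types were used as given. Doublets were not called again; their earlier treatment is not stated. The regenerating nuclei carry no barcode in their names, and neither do 4489 control nuclei, none of them neurons. Some subtypes and list genes are not reported here, and the lists were counted and summed without those genes.

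UMI counts of neurons were summed per library and tested with edgeR 4.0.16 (quasi-likelihood, TMM, filterByExpr with a minimum count of 10), 8 libraries in one fit with a coefficient per group (3 residual degrees of freedom). Benjamini-Hochberg adjustment ran over all genes tested, with calls under 0.05. The single control and regenerating libraries are assumed to vary like the replicated groups. Family fits used libraries with at least 5 nuclei. The interaction fit kept the library as a block. Levels are CPM from summed counts over libraries with at least 10 nuclei. Scripts were tested on simulated data. DESeq2 1.42.0, no TMM, no filter, the replicate block, libraries left out, another reference and the top nucleus were tried as alternatives. The replicate block used the libraries of experiment 1 only. For the top nucleus, its UMIs of a member were taken off that member's count, and its other UMIs stayed in. Only in the DE levels was the whole nucleus left out.

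The titles of experiment 1 give each sample number to a traced and an untraced library, which was read as 1 source per number and taken as pairing. Over 7136 genes the replicate differences of the 2 groups correlated at r = 0.20. The members were named in every comparison. Of the lists of late-born factors, domain relatives and TGF-beta genes, called genes were to be named, or else some with the smallest p. Members and lists were chosen with earlier results of these data known. The genes of most similar pattern are the 3 with the highest Pearson r among named genes averaging 20 CPM or more over subtypes.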

Additional observations from a re-analysis of the deposited data

How the results depend on the processing

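Calls of the replicated comparisons depend on few libraries. Genes called between traced and untraced neurons numbered 42, 159 with the replicate block, 234 with no filter and 19 to 93 with 1 library left out. After hemisection they numbered 645, 132 with DESeq2, 1101 with no filter, 22 against the untraced libraries and 171 to 327 with 1 hemisection library left out. In regenerating neurons they numbered 32, 185 with no filter and 0 to 28 with 1 traced library left out.

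Within DE, traced calls were 18, 43 with the replicate block and 2 to 21 with 1 library left out. Within VEP they were 1, 0 with the replicate block and 5 to 74 with 1 library left out. The interaction gave 6 calls, and 13 to 65 with 1 library left out. Hemisection calls with 1 hemisection library left out were 25 to 82 in DE, 0 to 244 in DI, 0 to 68 in VEP and 42 to 92 in VIP. Leaving out libraries within families and in the interaction, and the top nucleus in DE, was chosen after seeing the data. The replicate block changed no call of a member.

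Among the edgeR and DESeq2 fits, signs changed only for differences that were not called. Equal numbers of DE and VEP nuclei (9 and 6 per library, mean of 20 draws) gave a traced Zfhx3 difference of -0.0881. Onecut1 was then at -2.67, Onecut3 at -1.03 and Pou2f2 at -0.47, while Zfhx4 was at 0.66 and Onecut2 at 1.45. Against re-weighted untraced neurons, Zfhx3 was 0.000357 and -0.12 by family in replicates 1 and 2. By subtype it was 0.0706 and -1.23. With the member's UMIs of the top nucleus taken off, traced Pou2f2 was -0.11 and hemisection Zfhx3 -0.00356. After hemisection, Onecut1 was -0.0606 with DESeq2 and Onecut2 was 0.0801 against the untraced libraries. With 1 library left out, Pou2f2 ran from -0.32 to 0.54 between traced and untraced neurons, -1.05 to 0.38 within DE, -0.11 to 0.0886 after hemisection in DI and -0.79 to 0.0112 in regenerating neurons, where Onecut1 was -0.25. Within VEP, traced differences ran from -0.48 to 0.52 for Zfhx3, -0.27 to 2.00 for Zfhx4 and -7.34 to 2.49 for Onecut1, whose hemisection difference ran from -5.42 to 1.45. The interaction ran from -2.36 to 2.41 for Onecut2 and -1.55 to 1.39 for Zfhx4. The cause was not tested. Depth limits Onecut1 and Onecut3 throughout and every member in the regenerating library.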
